A study of Mus musculus with 2 samples.

Results

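Serpine2, Serpinh1, Nid1, Sparc, Lamb1, Fn1, Col4a1, Col4a2 and Npnt are genes of the extracellular matrix, of its assembly inside the cell, or of a secreted serpin. They were taken by symbol from the deposited gene lists, and all 9 were found among 33696 gene identifiers. Their UMIs (unique molecular identifiers, each counting 1 captured transcript) were followed in embryoid bodies, the aggregates that mouse embryonic stem cells form as they begin to differentiate. Both groups were made from J1 cells, a male embryonic stem cell line. The DMSO group received solvent for 2 days and the dTAG13 group received dTAG13 for the same time, and both were dissociated with trypsin and passed through a cell strainer before 10x Genomics 3′ sequencing. dTAG13 is a small degrader molecule: it links proteins that carry an FKBP12 tag to a ubiquitin ligase, which marks them for degradation. The labels do not name a tagged protein, and the series title names Tex10. How a tagged line was built, how many clones it came from and how many embryoid bodies went into a library are not given in the sources used here.

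Each group was a single library (n = 1), so the differences have no replicate check and none was tested. Cells were kept if they had 500 or more genes and no more than 10% mitochondrial UMIs, and they numbered 17878 with DMSO and 11588 with dTAG13. The kept cells held 117189816 and 91808969 UMIs, with medians of 6014 and 7072.5 UMIs per cell. Levels are in CPM, the UMIs of a gene scaled to a common library total, and every ratio is the dTAG13 level over the DMSO level. All intervals are at the 95% level and cover only counting error. A ratio called higher or lower is a difference between these libraries, and treatment and library cannot be told apart. The 12 pluripotency markers, the labelled cell type, summed to 10369 and 9232 CPM, of which Dppa5a alone gave 7262 and 6581 CPM. Zfp42 was the 1 marker lower by 1.5-fold or more, with a ratio of 0.656 (0.647 to 0.664), and the other 11 differed by less. The libraries shared 64 cell barcodes, 63 of them among the kept cells.

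The basement membrane is a thin sheet of matrix beneath epithelia. Laminin and type IV collagen each form a network in it, nidogen bridges the networks, and Sparc, fibronectin and nephronectin bind collagen or integrin receptors around it. In embryoid bodies a basement membrane forms between the outer endoderm and the inner epiblast-like cells, and it is needed for the inner cells to polarise. Collagen chains need their own chaperone, the serpin Hsp47 encoded by Serpinh1, while the serpin encoded by Serpine2 is a secreted inhibitor of thrombin, plasminogen activators and related proteases.

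The genes with the widest differences between the libraries were Serpine2, Serpinh1 and Npnt, higher with dTAG13, and Nid1, lower with dTAG13. The sequences just upstream of their annotated starts are shown so that the letters in front of the transcripts that differed most can be compared. RefSeq GRCm38.p6 windows were found for 8 of the 9 genes, with none for Fn1. Each stretch is cut before any annotated exon and runs 5′ to 3′ on the gene's strand. Capitals mark a GC box (GGGCGG on either strand), a CCAAT box (CCAAT on either strand) or, in Nid1 alone, a p53 decamer. The decamer is 1 of the 2 repeats that make up a full p53 response element, and no full element was searched for. Serpine2 lies at chr1:79858697-79858915 on the minus strand, Serpinh1 at chr7:99353240-99353489 on the minus strand, Npnt at chr3:132950292-132950541 on the minus strand, and Nid1 at chr13:13437352-13437550 on the plus strand.
Serpine2: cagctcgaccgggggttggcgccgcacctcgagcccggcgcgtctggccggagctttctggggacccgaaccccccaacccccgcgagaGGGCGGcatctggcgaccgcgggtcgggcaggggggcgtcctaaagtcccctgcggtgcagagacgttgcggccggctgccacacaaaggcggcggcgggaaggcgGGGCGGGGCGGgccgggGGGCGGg
Serpinh1: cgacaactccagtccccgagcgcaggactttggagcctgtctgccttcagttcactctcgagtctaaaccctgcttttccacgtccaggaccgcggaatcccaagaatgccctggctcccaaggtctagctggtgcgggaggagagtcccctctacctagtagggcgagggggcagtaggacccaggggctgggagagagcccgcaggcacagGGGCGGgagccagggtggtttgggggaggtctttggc
Npnt: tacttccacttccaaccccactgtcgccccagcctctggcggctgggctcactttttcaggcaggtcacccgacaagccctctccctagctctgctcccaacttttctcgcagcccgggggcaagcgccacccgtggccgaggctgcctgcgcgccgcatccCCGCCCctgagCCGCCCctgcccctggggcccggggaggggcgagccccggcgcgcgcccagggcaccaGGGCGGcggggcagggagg
Nid1: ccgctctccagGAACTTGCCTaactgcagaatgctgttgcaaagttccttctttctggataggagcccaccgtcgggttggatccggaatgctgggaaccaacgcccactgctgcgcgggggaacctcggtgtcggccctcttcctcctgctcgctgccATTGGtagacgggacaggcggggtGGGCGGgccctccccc

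All 4 stretches held a GC box. The Serpine2 stretch held 4, the Npnt stretch 3, and the Serpinh1 and Nid1 stretches 1 each. Of the GC boxes in the Serpine2 stretch, 2 share 1 base and the others lie apart. Npnt has a further RefSeq start, whose window at chr3:132949815-132950064 is not printed since it holds an annotated exon, and none of the motifs searched was in it. Nid1, the gene with the lowest ratio, was the only gene of these 4 whose stretch held a CCAAT box, and it also held the p53 decamer. Serpine2, Serpinh1 and Npnt held neither. Among the windows not printed, that of Sparc also held the p53 decamer. Over 32851 RefSeq windows of 250 bases, 32.7% held a GC box, 33.8% a CCAAT box and 7.13% the p53 decamer. The AP-1 site (TGANTCA) and the heat shock element (GAANNTTC), both searched on both strands, were in none of the 4 stretches and in 6.75% and 6.69% of all windows. The full windows of Serpine2, Serpinh1, Npnt and Nid1 were 78.8%, 63.6%, 74% and 64.4% G or C, against a median of 52.4% over all windows. The annotated starts of Col4a1 and Col4a2 face away from each other on chromosome 8, at 11312826 and 11312805, so that the genes overlap by 22 bases. A match is a run of letters and not evidence of binding.

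Of the 9 genes, 4 had dTAG13 levels higher by 1.5-fold or more (Serpine2, Serpinh1, Npnt and Col4a2) and 1 had a level lower by that fold (Nid1). All 9 reached 1 CPM in 1 or both libraries, and among the 12210 genes that did so, 18.4% were higher and 7.31% lower by that fold. At the stricter limit of 5 CPM, which Col4a2 did not reach, 3 of 8 were higher and 1 was lower, beside 14.2% and 5.4% of 8817 genes. At a 2-fold limit the same 8 gave 3 higher and 1 lower, beside 6.17% and 1.77% of genes. The median log2 ratio of the 8 was 0.55, and that of the 8817 genes was 0.09. The 9 genes were chosen with earlier results of these data known, so these shares describe the set and test nothing. Summed, they took 318 and 481 CPM, a ratio of 1.51 (1.49 to 1.53), and Sparc alone gave 49.7% and 47.7% of those UMIs.

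**Figure D1:**
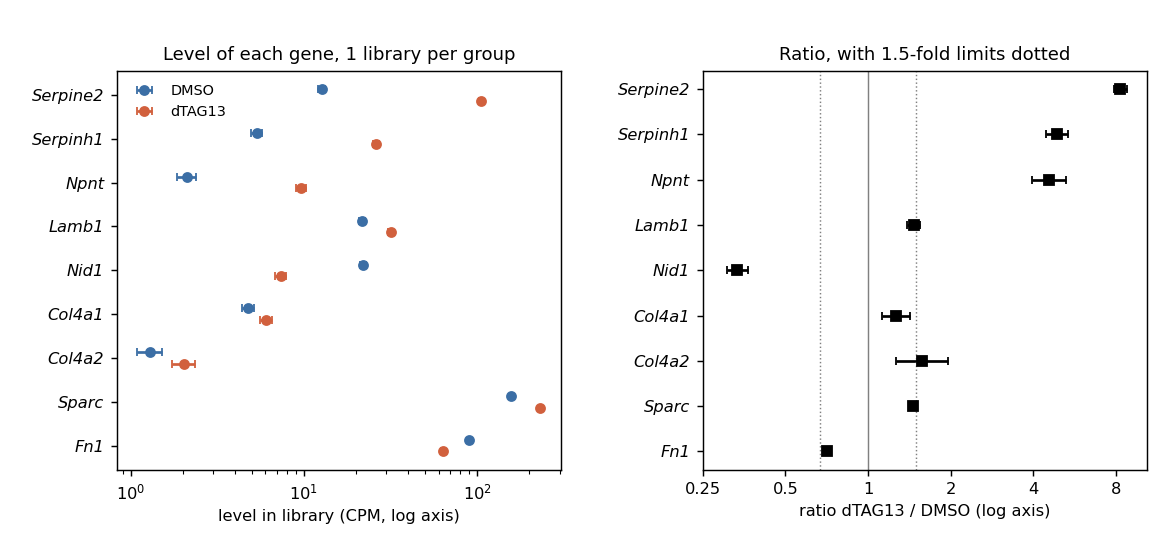
Level of each of the 9 genes in the DMSO and dTAG13 libraries, in CPM on a log axis, with 95% Poisson intervals, and beside it the ratio of dTAG13 over DMSO on a log axis with its 95% interval and dotted lines at 1.5-fold (counting error only). Serpine2, at 12.7 and 105 CPM, shows the widest gap upward, and Nid1, at 22.0 and 7.35 CPM, the widest gap downward.

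Serpine2 (ENSMUSG00000026249), the secreted protease inhibitor also called protease nexin, had 1486 UMIs with DMSO and 9634 with dTAG13. These are 12.7 CPM (12.0 to 13.3) and 105 CPM (103 to 107), a ratio of 8.28 (7.83 to 8.75). The ratio was the 31st highest of 8817 genes. Serpine2 was seen in few DMSO cells and was common among dTAG13 cells. In cells thinned to 3900 UMIs each, which removes the difference in depth, Serpine2 was detected in 4.48% (4.17 to 4.82) of 16123 cells with DMSO and in 31.7% (30.8 to 32.6) of 10815 cells with dTAG13. Without thinning the shares were 7.02% and 47.8%. Thinning left out 1755 DMSO and 773 dTAG13 cells below that depth.

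Serpinh1 (ENSMUSG00000070436), the collagen chaperone of the endoplasmic reticulum, had 625 UMIs with DMSO and 2388 with dTAG13. Its level was 5.33 CPM (4.92 to 5.77) and 26.0 CPM (24.98 to 27.1), a ratio of 4.88 (4.46 to 5.33), the 98th highest of the 8817. A Serpinh1 UMI was found in 1.86% (1.66 to 2.08) and 8.61% (8.09 to 9.15) of thinned cells, and in 3.22% and 15.8% of all kept cells. Both serpins thus stood among the highest ratios in these libraries, although they act in different places, Serpinh1 on collagen chains inside the cell and Serpine2 on proteases outside it.

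Npnt (ENSMUSG00000040998) encodes nephronectin, a matrix ligand of the integrin α8β1. It had 248 UMIs with DMSO and 886 with dTAG13, or 2.12 CPM (1.86 to 2.40) and 9.65 CPM (9.03 to 10.3). The ratio was 4.56 (3.96 to 5.27), the 116th highest of the 8817. Npnt stayed scarce per cell even where it was higher: 0.819% and 3.495% of thinned cells held a UMI, and 1.33% and 6.68% of all kept cells.

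Nid1 (ENSMUSG00000005397) encodes nidogen-1, the link between the laminin and collagen IV networks, and it was lower with dTAG13. Its 2577 UMIs with DMSO and 675 with dTAG13 gave 22.0 CPM (21.1 to 22.9) and 7.35 CPM (6.81 to 7.93). The ratio of 0.334 (0.307 to 0.364) was the 47th lowest of the 8817. A Nid1 UMI was found in 7.77% (7.36 to 8.19) and 2.88% (2.57 to 3.21) of thinned cells, and in 12.5% and 5.32% of all kept cells. Among the 9 genes Nid1 and Fn1 were the 2 with a ratio below 1.

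Lamb1, Col4a1 and Col4a2, which code for chains of the networks that nidogen bridges, were higher with dTAG13 over the whole libraries. Some other laminin chains were lower. Lamc1, the γ1 chain that nidogen binds, was at 30.4 and 24.998 CPM, a ratio of 0.824 (0.781 to 0.868). Lama1, the α1 chain, was at 3.14 and 1.43 CPM, a ratio of 0.454 (0.369 to 0.556). Lamb1 (ENSMUSG00000002900), the laminin β1 chain to which other chains join, was at 21.6 CPM (20.8 to 22.5; 2536 UMIs) and 31.7 CPM (30.6 to 32.9; 2911 UMIs), a ratio of 1.47 (1.39 to 1.55). Lamb1 thus lay just inside 1.5-fold. Col4a1 (ENSMUSG00000031502), the type IV collagen α1 chain, was at 4.78 CPM (4.39 to 5.19) and 6.05 CPM (5.55 to 6.57) from 560 and 555 UMIs, a ratio of 1.27 (1.12 to 1.43). Col4a2 (ENSMUSG00000031503), the α2 chain that joins α1 in the same trimer, was at 1.29 CPM (1.09 to 1.51) and 2.03 CPM (1.75 to 2.34). Its ratio of 1.57 (1.26 to 1.96) rests on 151 and 186 UMIs, and its interval overlaps that of Col4a1. UMIs of Lamb1, Col4a1 and Col4a2 were in 7.78%, 1.49% and 0.496% of thinned DMSO cells and in 10.7%, 2.03% and 0.767% of thinned dTAG13 cells. In all kept cells the shares were 12.4%, 2.67% and 0.777% with DMSO and 20.2%, 3.94% and 1.44% with dTAG13.

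Sparc and Fn1, both secreted proteins that bind collagen, differed in opposite directions. Sparc (ENSMUSG00000018593), a secreted collagen-binding glycoprotein, had 18526 and 21099 UMIs, or 158 CPM (156 to 160) and 230 CPM (227 to 233), a ratio of 1.45 (1.43 to 1.48). Fn1 (ENSMUSG00000026193), fibronectin, had 10559 and 5862 UMIs, or 90.1 CPM (88.4 to 91.8) and 63.9 CPM (62.2 to 65.5), a ratio of 0.709 (0.686 to 0.732). The shares of cells followed the levels. A Sparc UMI was found in 42.7% and 52.5% of thinned cells and a Fn1 UMI in 28.7% and 21.1%, against 56.7% and 70.9%, and 41.5% and 34.9%, of all kept cells.

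**Figure D2:**
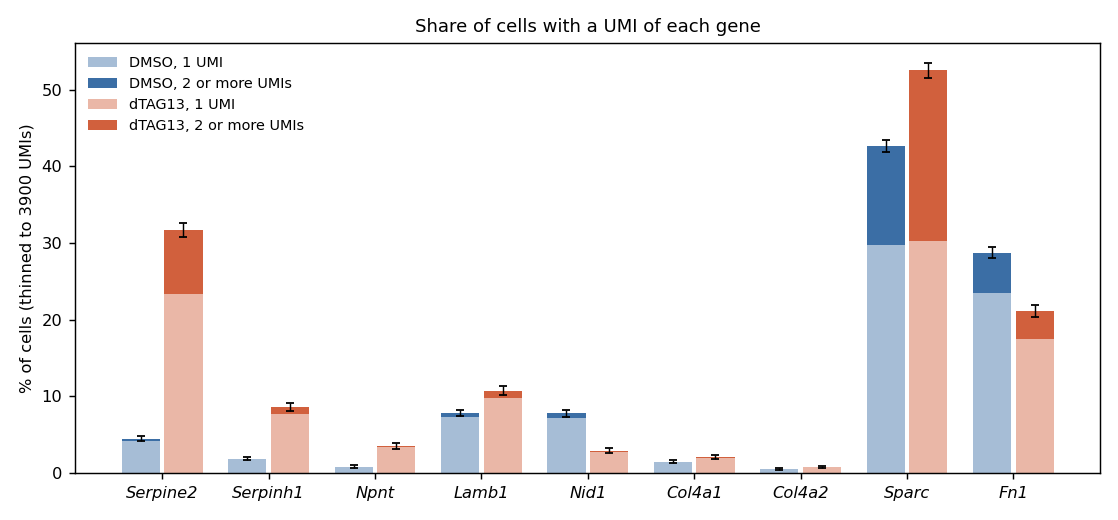
Share of cells with a UMI of each gene, in percent, after thinning to 3900 UMIs per cell, for 16123 DMSO and 10815 dTAG13 cells, split into cells with 1 UMI (pale) and with 2 or more (dark), with 95% exact binomial intervals. Serpine2 was found in 4.48% of DMSO and 31.7% of dTAG13 cells, Nid1 in 7.77% and 2.88%, and Fn1 in 28.7% and 21.1%.

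Free RNA in the droplets can give UMIs to cells that do not make a transcript, and no cell type that should lack these 9 genes was defined. UMIs of Zscan4 genes outside the cluster that expresses them gave an upper bound on free RNA of 5.31% (3.36 to 7.96) of DMSO UMIs and 5.999% (4.49 to 7.85) of dTAG13 UMIs, taking free RNA to be made up like the library. Free RNA at the upper interval limits, 7.96% and 7.85%, would put a Serpine2 UMI in 0.393% of DMSO and 3.16% of dTAG13 cells. A Sparc UMI would be in 4.79% and 6.79%. The measured shares, 4.48% and 31.7% for Serpine2 and 42.7% and 52.5% for Sparc, were above these in both libraries.

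Few cells held many of the 9 transcripts at once. In thinned cells 32.4% of DMSO cells and 20.2% of dTAG13 cells held none of the 9, and 43.7% and 39.8% held exactly 1. Cells with 5 or more of the 9 numbered 5 with DMSO and 31 with dTAG13. Those 5 DMSO cells had 12 trophoblast-marker UMIs per cell, against 0.616 in cells with 0 to 2 of the genes, and the 31 dTAG13 cells had 2.74 against 0.447. Whether trophoblast markers have a part in this was not tested. Between pairs of the 9 genes in single cells, Pearson r lay between -0.03 and 0.09 for every pair except the collagen IV chains. Col4a1 and Col4a2 had r = 0.14 in each library, and both were found in 16 DMSO and 12 dTAG13 cells, where their separate shares would give 1.19 and 1.69.

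To see whether the differences lay between kinds of cells or within them, the cells of both libraries were clustered together without using the 9 genes. This gave 15 clusters, most of them largely from 1 library: clusters 0, 1, 5, 6, 7 and 8 were at most 8.14% dTAG13 cells and clusters 2, 3 and 4 at least 93.7%. With 1 library per group such a cluster may be a library and not a cell type. Clusters 9, led by Ebf1, Sox11 and Grb10, and 12, led by copies of Eif1ad and Zscan4, held cells of both libraries in like numbers (730 and 615, 71 and 65). Like numbers are not like cells. In cluster 9 the pluripotency markers summed to 9990 CPM (DMSO) and 7487 CPM (dTAG13), and fibroblast markers to 158 and 230 CPM. Cluster 10, led by Krt18, Krt8, Krt19 and Hand1, held 79 DMSO and 590 dTAG13 cells. Ratios within clusters were taken in the 12 clusters that held 50 or more cells from both libraries.

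Serpine2 was higher in the dTAG13 cells of all 12 clusters, with the interval above 1 in each. The ratios ran from 1.596 (1.28 to 2.01) in cluster 2 to 3.73 (2.50 to 5.47) in cluster 8, with a median of 2.87, all below the 8.28 of the whole libraries. In cluster 9, mixed evenly by cell number only, the Serpine2 level was 30.9 CPM (DMSO) and 111.5 CPM (dTAG13), a ratio of 3.60 (3.04 to 4.29). Among DMSO cells the highest Serpine2 levels were in clusters 4 and 2, at 64.3 and 55.7 CPM with overlapping intervals, and they were 43.4 and 46.5 CPM in clusters 3 and 10, the other clusters with a majority of dTAG13 cells. Among dTAG13 cells they were in clusters 10 and 3, at 135 and 127 CPM, and the lowest was in cluster 0, at 15.8 CPM.

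Serpinh1 ratios within clusters ran from 1.09 to 6.79 with a median of 2.14, and the interval lay above 1 in 6 of 12 and below 1 in none. In cluster 9 Serpinh1 was at 22.3 and 57.8 CPM, a ratio of 2.59 (2.11 to 3.22). In the keratin cluster it was high in both libraries, at 49.8 and 54.1 CPM, and the ratio of 1.09 (0.748 to 1.64) held 1. Npnt had too few UMIs for most clusters, and its interval lay above 1 in 3 of 12. Its clearest within-cluster difference was in cluster 9, with 7 UMIs (1.29 CPM) and 75 UMIs (12.1 CPM), a ratio of 9.40 (4.34 to 24.2).

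Nid1 ratios within clusters ran from 0.196 to 1.01 with a median of 0.567, and the interval lay below 1 in 6 of 12 and above 1 in none. Nid1 was at 24.4 and 10.9 CPM in cluster 0, a ratio of 0.449 (0.205 to 0.858), and at 17.2 and 6.77 CPM in cluster 2, a ratio of 0.393 (0.260 to 0.616). In cluster 8, led by Aard and Vim, the Nid1 interval held 1, with levels of 32.8 and 29.5 CPM and a ratio of 0.902 (0.618 to 1.28). The mixed cluster 9 was lowest in Nid1 in both libraries, at 3.32 and 2.10 CPM.

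Fn1 was lower in the dTAG13 cells of clusters 2, 3 and 9, with ratios of 0.684 (0.577 to 0.816), 0.695 (0.535 to 0.919) and 0.730 (0.624 to 0.852). In the other 9 clusters the Fn1 interval held 1, and the median over the 12 was 0.935. Sparc ratios ran from 1.01 to 1.69 with a median of 1.20, and the interval lay above 1 in 7 of 12. Sparc was at 190 and 322 CPM in cluster 3 and at 141 and 143 CPM in cluster 0. Lamb1 ratios centred on 1.03, with the interval above 1 in clusters 3 and 9 alone. In cluster 9, which pools like numbers of cells, Lamb1 was at 33.0 and 43.8 CPM, a ratio of 1.33 (1.10 to 1.61). Col4a1 and Col4a2 had median ratios of 0.968 and 0.817 over the 12 clusters. For each, the interval lay above 1 in 0 of 12 and below 1 only in cluster 10.

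**Figure D3:**
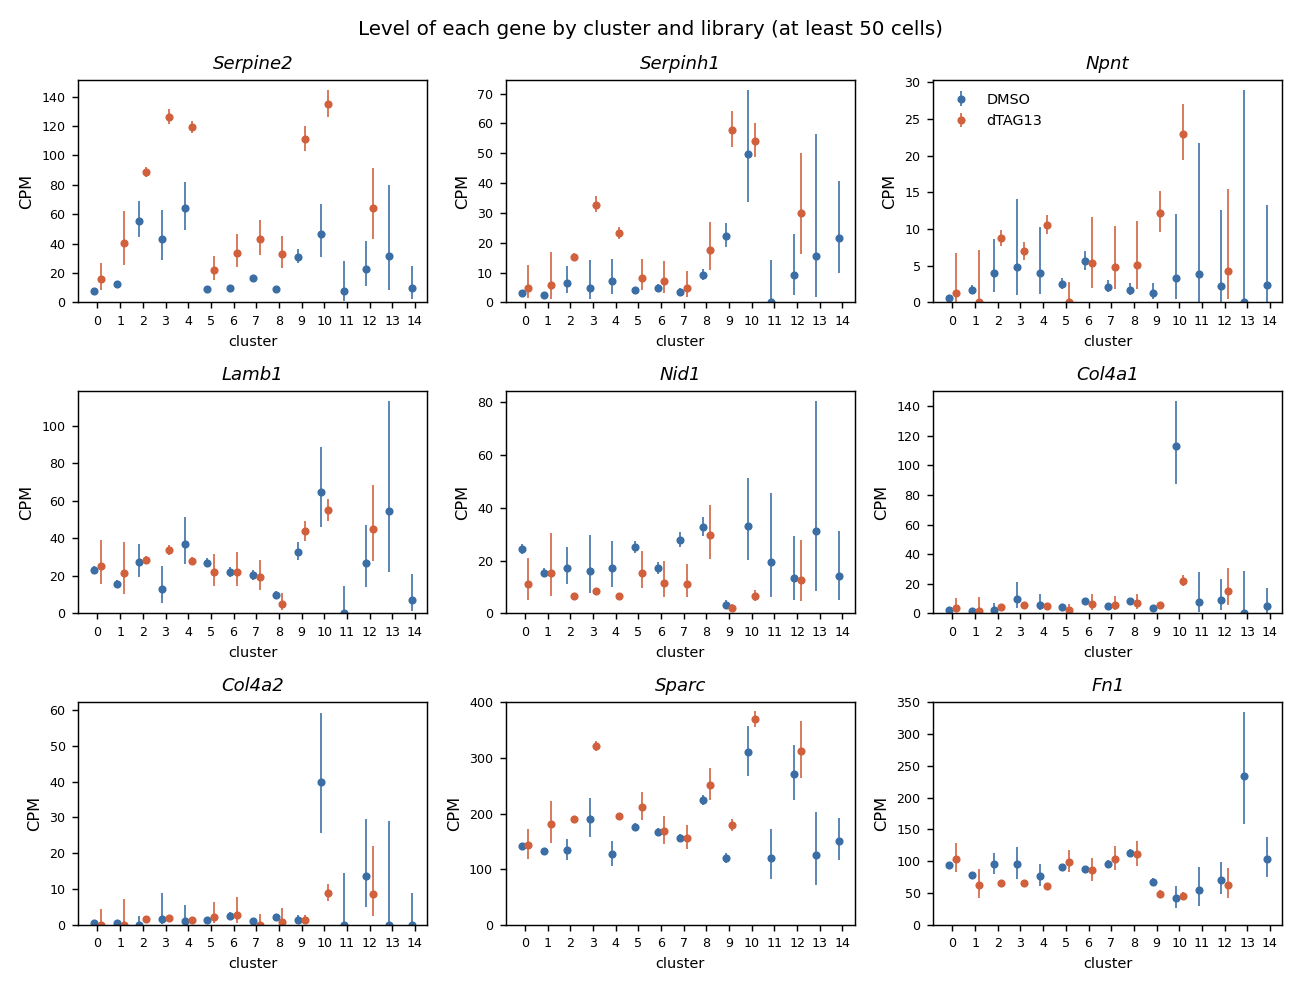
Level of each of the 9 genes in clusters with 50 or more cells of that library, in CPM, DMSO against dTAG13, with 95% Poisson intervals. Serpine2 is higher with dTAG13 in all 12 clusters that hold 50 or more cells of both libraries. The collagen IV genes are highest in the keratin cluster, number 10. Its intervals overlap those of cluster 12, except for Col4a1 with DMSO.

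The keratin cluster stood out for type IV collagen. It held 0.442% of DMSO cells and 0.514% of all DMSO UMIs. Its share was 12.1% (9.55 to 15.1) of the Col4a1 UMIs and 15.9% (10.5 to 22.7) of the Col4a2 UMIs of that library. With dTAG13 it held 5.09% of the cells and 7.02% of all UMIs. There it had 25.8% (22.2 to 29.6) of the Col4a1 UMIs and 30.6% (24.1 to 37.8) of the Col4a2 UMIs. Within it the Col4a1 level was 113 CPM for DMSO and 22.2 CPM for dTAG13 cells, a ratio of 0.196 (0.146 to 0.266), the reverse of the ratio of the whole libraries. Col4a2 was at 39.9 and 8.84 CPM, a ratio of 0.222 (0.135 to 0.374). The cells compared there were unlike: trophoblast markers summed to 4094 CPM in its DMSO cells and 955 CPM in its dTAG13 cells, and pluripotency markers to 5496 and 6341 CPM. Without this cluster the library ratios were 1.14 for Col4a1 and 1.39 for Col4a2, which leaves 3 of the 9 genes higher by 1.5-fold or more, a comparison added after the data were seen. Sparc (311 and 370 CPM) and Lamb1 (64.8 and 55.1 CPM) had their highest values there in both libraries. The intervals overlap those of the next cluster for both genes with DMSO and for Lamb1 with dTAG13. They also overlap for Col4a1 with dTAG13 and for Col4a2 in both libraries, where the next was cluster 12.

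Extraembryonic endoderm is the classic source of basement membrane in embryoid bodies, and its markers were scarce. Of 18 markers, Lrp2 alone reached 5 CPM, at 12.0 and 11.3 CPM, and the list summed to 16.3 CPM with DMSO and 21.3 CPM with dTAG13. Gata4 had 25 and 27 UMIs, Sox17 had 7 and 9, Afp had 3 and 4, and Ttr had 1 and 1. Others of the list were higher with dTAG13: Gata6 had 50 and 146 UMIs, a ratio of 3.73 (2.69 to 5.25), Cubn 70 and 171, a ratio of 3.12 (2.35 to 4.18), and Fst 88 and 381, a ratio of 5.53 (4.37 to 7.05). No marker was at 0 in either library. At least 3 of the 18 markers were found together in 2 cells of each library. Cells with none of these markers made up 90.5% and 86.5% of the kept cells. A Lrp2 UMI was found in 7.12% and 7.72% of the kept cells, so most cells with a marker held Lrp2. The cells were not thinned for these counts. With dTAG13, cells with 0, 1 and 2 of the markers had Serpinh1 levels of 23.7, 36.8 and 53.3 CPM. Their Sparc levels were 220.2, 277 and 316 CPM. With DMSO, Col4a1 was at 4.34, 7.81 and 17.1 CPM in those cells, the last from 9 UMIs. Serpine2 was at 12.4, 14.3 and 20.9 CPM with DMSO and at 104, 108 and 138 CPM with dTAG13. The part of endoderm in these levels was not tested. Fibroblast markers summed to 37.0 and 91.2 CPM, of which Tagln gave 27.6 and 85.7 CPM. Acta2 went the other way, at 6.40 and 1.83 CPM, a ratio of 0.286 (0.240 to 0.338), as did Thy1 with a ratio of 0.400 (0.233 to 0.662), while Col3a1, Lum and Postn were at 0 in both libraries. Endothelial markers summed to 34.2 and 64.0 CPM, of which Pecam1 gave 32.2 and 58.5 CPM, and Emcn was at 0 in both. The part of Tagln-positive or Pecam1-positive cells in the results was not tested.

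Serpine2 was higher in the library where targets of p53 were higher too; p53 is a transcription factor activated by DNA damage and by defects in making ribosomes. Of 32 measured targets, 29 were at least 1.5-fold higher and 0 lower, beside 14.2% and 5.4% of the 8817 genes. Their median log2 ratio was 1.43, and Mdm2, which limits p53, was at 45.3 and 364 CPM. Thinned cells were therefore binned by the summed UMIs of the 33 listed targets, none of which is among the 9 genes. With DMSO, Serpine2 was at 5.78 CPM (4.96 to 6.71) in the 7714 cells with 0 to 2 target UMIs, 13.6 CPM in those with 3 to 5, 28.6 CPM in those with 6 to 9 and 44.9 CPM (35.2 to 56.3) in the 423 with 10 or more. With dTAG13 the same bins, of 200, 1176, 3340 and 6099 cells, had 37.2 CPM (24.9 to 53.4), 57.3, 85.4 and 137 CPM (132 to 141). Serpine2 was thus higher in the bins with more target UMIs in each library, and within each bin it was higher with dTAG13. The bins share limits but were not matched in target UMIs. The highest bin ran to 23 target UMIs with DMSO and to 40 with dTAG13. Over all thinned cells the medians were 3 and 10. In cluster 9 the listed targets summed to 937 CPM (DMSO) and 2404 CPM (dTAG13). Whether p53 has a part in the Serpine2 difference was not tested.

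The other genes differed in how they followed those bins. Serpinh1 was at 3.82 and 9.09 CPM in the lowest and highest bin with DMSO, and at 10.3 and 29.98 CPM with dTAG13. Npnt was at 1.99 and 4.24 CPM with DMSO and at 3.85 and 11.8 CPM with dTAG13, the lowest of these from 3 UMIs. Nid1 showed no such gradient with DMSO, at 20.9 CPM (19.3 to 22.6) and 18.8 CPM (12.8 to 26.7), and was at 11.5 CPM (5.28 to 21.9) and 6.89 CPM (5.88 to 8.03) with dTAG13. Fn1 was level across the DMSO bins, at 87.7, 89.6, 94.7 and 89.7 CPM, and stepped down across the dTAG13 bins, at 87.2, 74.8, 70.6 and 59.2 CPM. In the lowest bin Fn1 was thus alike in both libraries, within intervals of 84.4 to 91.1 and 67.7 to 110.5 CPM. Sparc went from 159 to 144 CPM over the DMSO bins and from 162 to 245 CPM over the dTAG13 bins.

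**Figure D4:**
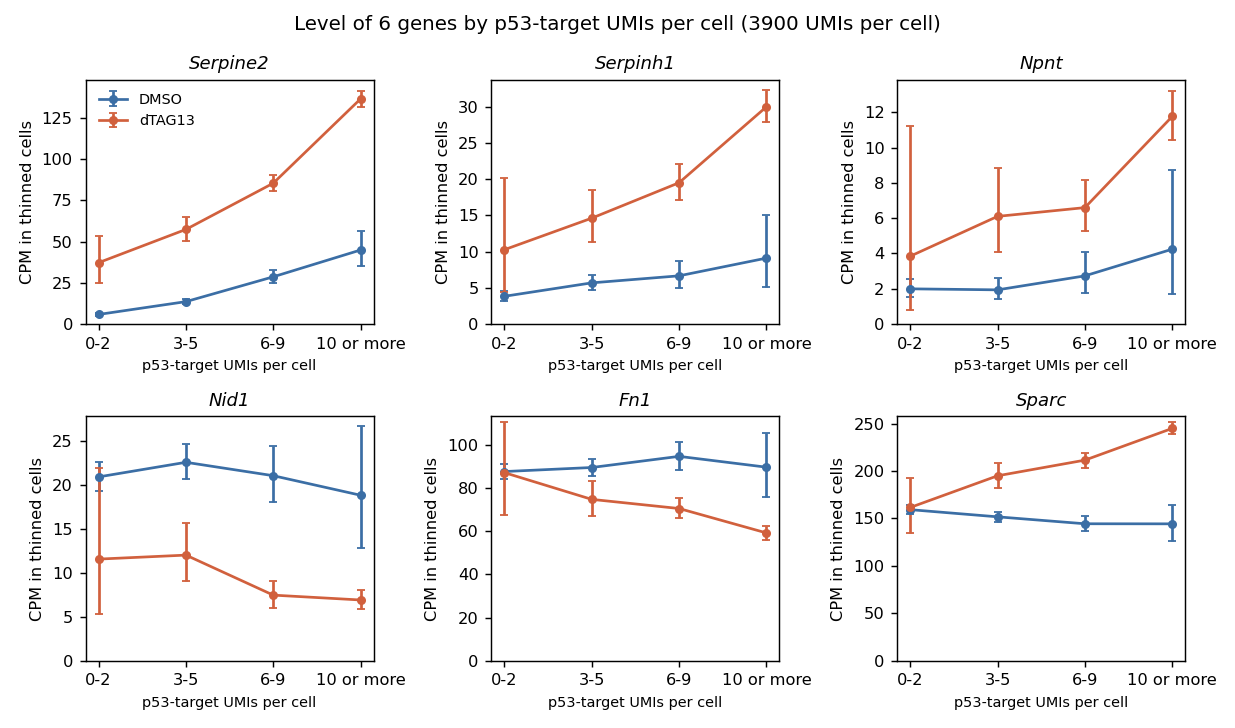
Level in CPM of Serpine2, Serpinh1, Npnt, Nid1, Fn1 and Sparc in thinned cells binned by their summed p53-target UMIs (0 to 2, 3 to 5, 6 to 9, 10 or more), for each library, with 95% Poisson intervals. Serpine2 is higher in each successive bin of both libraries, from 5.78 to 44.9 CPM with DMSO and from 37.2 to 137 CPM with dTAG13, while Nid1 is at 20.9 and 18.8 CPM in the lowest and highest DMSO bins.

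Serpine2 and Nid1 differed in the same direction in shallow and in deep cells. In cells with up to 5471 UMIs the Serpine2 level was 15.3 CPM for DMSO and 142 CPM for dTAG13, and in cells with more than 7485 UMIs at 11.3 and 94.9 CPM. Nid1 was at 18.7 and 8.79 CPM in the shallower cells and at 23.8 and 6.85 CPM in the deeper ones.

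Among genes at 5 CPM or more, the rest of the basement membrane differed less than Nid1. Of 30 other basement membrane genes 8 reached 5 CPM, and only Hspg2, the proteoglycan perlecan, was at least 1.5-fold higher, at 18.05 and 31.7 CPM. None of the 8 was lower by that fold, and their median log2 ratio was 0.27. Over the 8817 genes, 14.2% were higher and 5.4% lower by that fold. Below 5 CPM the genes differed both ways. Ratios were 5.01 (2.75 to 9.77) for Lamb3 from 14 and 55 UMIs, 3.42 (2.58 to 4.58) for Frem2 and 0.454 (0.369 to 0.556) for Lama1. The laminin chain Lama5 was at 25.02 and 30.4 CPM and the proteoglycan Agrn at 15.1 and 18.7 CPM, while Fbln1 was at 10.8 and 8.41 CPM. In the interstitial matrix, 4 of 28 genes reached 5 CPM, and the median log2 ratio was 1.69. The matricellular genes Ccn1 (1.94 and 19.98 CPM) and Ccn2 (14.4 and 31.1 CPM) and the proteoglycan gene Vcan (18.9 and 91.5 CPM) were higher, and Spp1, encoding osteopontin, was lower, at 288 and 142 CPM.

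Among 20 genes that modify, fold or export collagen, the work in which Serpinh1 takes part, 12 reached 5 CPM, with a median log2 ratio of -0.09. Fkbp10, a prolyl isomerase for procollagen, was at 1.92 and 10.2 CPM, a ratio of 5.32 (4.60 to 6.18). Plod2, a lysyl hydroxylase of collagen, was at 13.3 and 55.5 CPM, a ratio of 4.17 (3.94 to 4.42). These 2 of the 12 were at least 1.5-fold higher, a share near the 14.2% of all genes, and none was lower. Plod3 and Sec23a had ratios of 1.36 and 1.34. A list of chaperones and stress factors of the endoplasmic reticulum did not go with Serpinh1. Of 15 measured, 6 were at least 1.5-fold lower, beside 5.4% of the 8817 genes. Among them were the chaperone gene Hspa5, at 617 and 338 CPM, and the transcription factor gene Xbp1. Only the stress-induced factor Ddit3 was higher by that fold, at 3.73 and 18.4 CPM, beside 14.2% of the 8817. The median log2 ratio of the 15 was -0.51.

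The other serpins did not go with Serpine2 and Serpinh1. Of 18 listed, 4 reached 5 CPM, and 3 of them, the intracellular clade B serpins Serpinb1a, Serpinb6c and Serpinb9b, were at least 1.5-fold lower, with none higher and a median log2 ratio of -1.84. Serpinb6c was at 21.4 and 5.47 CPM, a ratio of 0.255 (0.231 to 0.281), and Serpinb6a was at 46.7 and 39.3 CPM. Among 26 proteases and protease inhibitors of the matrix, 10 reached 5 CPM and the membrane protease gene St14 alone was at least 1.5-fold higher, at 12.8 and 26.7 CPM, with none lower and a median log2 ratio of 0.10. Of the matrix receptors that reached 5 CPM, 6 of 11 were at least 1.5-fold higher (Ddr1, Itga3, Itgav, Itgb5, Sdc1 and Sdc4) and 0 lower. Their median log2 ratio was 0.63. Below 5 CPM, receptors differed both ways, with a ratio of 0.263 (0.200 to 0.341) for Itga9 and 13.8 (8.81 to 22.7) for Itga8. Over the 8817 genes, 14.2% were higher and 5.4% lower by that fold, the shares to set beside each list here. The syndecan gene Sdc4 was at 71.9 and 310 CPM and the integrin gene Itgb5 at 4.92 and 10.7 CPM, while Itgb1, the shared β1 chain, was at 143 and 124 CPM and the laminin receptor Bcam at 12.2 and 14.3 CPM.

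**Figure D5:**
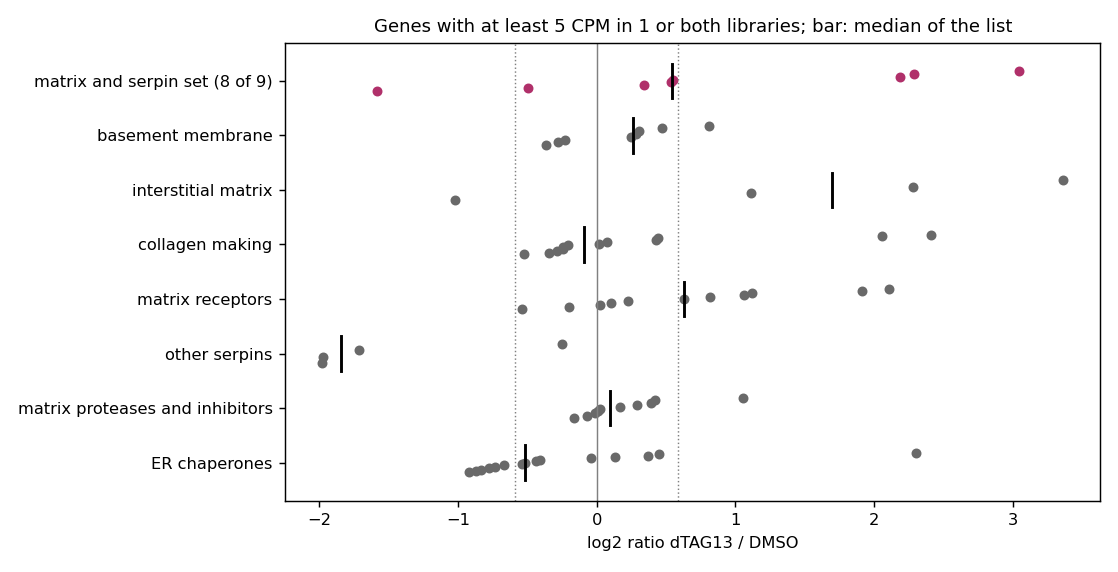
Log2 ratio, dTAG13 over DMSO, of each measured gene (at least 5 CPM in 1 or both libraries) of the 9-gene set (8 of the 9, pink) and of 7 related gene lists (grey), with a black bar at each list's median and dotted lines at 1.5-fold. The matrix receptors (median 0.63) lie to the higher side, the other serpins (median -1.84) to the lower side, and the set itself spans both, from Serpine2 to Nid1.

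Over 27 groups of cells, each a cluster within a library, the genes whose levels were most like those of each member were found by Pearson r of log2(CPM + 10) among 4817 genes. The groups share their library, depth and cell makeup, so these values are descriptions. Serpine2 was most like Btg2 (r = 0.958), an antiproliferative p53 target, then Cgref1 (0.956) and Rap2b (0.954). Serpinh1 was most like Nes (0.865), the intermediate filament gene nestin, Tubb6 (0.854) and Pdlim7 (0.851). Nid1 had the weakest best match, Idh2 (0.793), followed by Tfrc (0.774) and Vangl1 (0.771). Col4a1 and Col4a2 shared their nearest genes Anxa2 (0.861 and 0.909) and Jak1 (0.842 and 0.843). Sparc was most like Plin2 (0.830), Lamb1 like Tbl1x (0.835), Fn1 like Elavl2 (0.872) and Npnt like Hsdl2 (0.827).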

How the data were processed

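The deposited files give UMI counts as whole numbers for each gene and barcode, written by Cell Ranger 8.0.1 per the file headers. The submitters' processing notes also list Seurat 5.0.1, R 4.3.2 and mm10, with no role given. Any filter on barcodes before deposit is not stated in what was used here. The build behind the counts is not settled, so coordinates belong to the RefSeq GRCm38.p6 sequence table alone. Identifiers with the same symbol were summed.

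Counts were summed over kept cells per library and scaled to CPM. CPM has exact Poisson intervals, ratios exact conditional binomial intervals and shares exact (Clopper-Pearson) binomial intervals. Thinning drew 3900 UMIs per cell. No doublet caller was run for these results and nothing was filtered on doublet status; doublets remain. Clustering used 2000 variable genes without the 9 genes, 30 principal components, 15 neighbours and leidenalg 0.10.2 at resolution 1 (scanpy 1.11.5, Python 3.11.15), without integration. Clusters were given no cell type name. The ratio and interval step was checked on simulated gene totals with Poisson counting error, and thinning was checked on cells of the DMSO library.

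The 9 genes, the gene lists and the rules were chosen with earlier results of these data known. Beside the 9 genes, the text names up to 4 genes per list with the largest absolute log2 ratio and 10 CPM or more in either library, and the 3 genes most like each of the 9. Other genes were chosen after their values were seen. Alternative filters, scalings, cell weights and cell selections were tried.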

Additional observations from a re-analysis of the deposited data

How the results depend on the processing

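With 1 library per group, the spread between embryoid body preparations is not measured and no library could be left out in turn. No paired analysis was possible because each group has 1 library. Across the alternatives, the number of the 9 genes at least 1.5-fold higher lay between 3 and 5: it was 3 at a 2-fold limit and without the keratin cluster, where Col4a2 dropped below the limit in the latter case, and 5 with every cell weighted equally, which added Sparc. The number lower was 1, Nid1, in each. The median log2 ratio of the 9 lay between 0.48 and 0.60. Each gene kept its direction in 11 alternatives: Serpine2 had ratios of 8.14 to 8.70, Serpinh1 of 4.68 to 5.11, Npnt of 4.10 to 4.65, Col4a2 of 1.39 to 1.67, Lamb1 of 1.40 to 1.48, Sparc of 1.39 to 1.52, Col4a1 of 1.14 to 1.35, Fn1 of 0.697 to 0.727 and Nid1 of 0.329 to 0.359. Sparc left its counting interval in 2 of the 11, and the other 8 genes in none. Scaling by the median of ratios over 4327 genes moved log2 ratios by 0.02. Leaving out the keratin cluster or the shallow clusters, 11 and 13, was chosen after the data were seen. Depth limits Npnt, Col4a1 and Col4a2 most: most of their within-cluster ratios rest on few UMIs.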
